A study of Mus musculus with 4 samples.

Results

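The genes described here are 10 genes of bone-forming cells, given by name as a list of osteoblast and osteocyte genes, with earlier results of these data known: Sp7, Col1a1, Col1a2, Bglap, Bglap2, Ifitm5, Dmp1, Mepe, Phex and Fgf23. They are 10 of the 50686 gene identifiers counted in the hip libraries and of the 54838 counted in the knee libraries, and all 10 were found in both. Poly-A RNA of mouse hip and knee articular cartilage had been sequenced in a study of the deletion of Cbfb, which encodes the partner subunit of the Runx transcription factors, with 1 library per condition and 4 libraries in all. The hip tissue is described in the paper as cartilage alone, and that of the knee as cartilage together with bone. By their labels all 4 carried the floxed Cbfb allele (Cbfβf/f). The hip control came from Cbfβf/f mice with no Cre and is labelled as not treated, and the other hip library came from Cbfβf/f;Col2α1-CreERT mice injected with tamoxifen (TMX). Going by these labels, Cre and TMX differed together within the hip pair, and the effects of either and of the deletion cannot be told apart there. The methods of the paper state that Cbfβf/f mice were given TMX or oil, and its results name wild-type mice as the comparison. The treatment and genotype of the hip control are therefore not settled. In the knee pair both libraries came from Cbfβf/f;Aggrecan-CreERT mice, with oil in the control and TMX in the other. The hip mice were male and 6 weeks old, with TMX (75 mg/kg on 5 days) begun at 2 weeks, and the knee mice were male and 12 weeks old, with TMX begun at 6 weeks, although other passages of the paper give older ages for the hip mice and for the start of TMX in the knee mice. The strain background is not given in the sources used here, and the general group size in the methods of the paper is not tied to the RNA libraries. Both Cre drivers are promoters of cartilage matrix genes.

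Osteoblasts lay down bone matrix, which is mostly type I collagen, and secrete osteocalcin and other proteins into this matrix, which becomes mineralized. Osteoblasts that become enclosed in the matrix turn into osteocytes, which make matrix phosphoproteins and regulate phosphate in the blood through the hormone FGF23. Runx2, which binds DNA together with Cbfb, and Sp7 (osterix) are the transcription factors on which formation of osteoblasts depends. Articular cartilage itself has little type I collagen and no bone, and it lies directly on subchondral bone.

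The 4 libraries held between 34264456 and 38473120 counts on genes, and a count of 3, taken as the floor, was 0.0780 to 0.0876 CPM, where CPM is the count scaled to a fixed library total. With 1 library per condition no replicate error and no p-value can be given, and each ratio compares 2 libraries. A log2 ratio is the count of the TMX library over that of its control after TMM normalization within the joint, with a 95% Clopper-Pearson interval that takes in the error of counting and nothing else. A gene was called lower or higher when it had at least 10 counts over the pair, a ratio of at least 2-fold and an interval without 0. Cbfb itself was not called lower in either library labelled as deleted, with 2548 counts in the hip control and 2946 in the hip TMX library (log2 ratio 0.41), and with 3796 in the knee control and 4572 in the knee TMX library (-0.07). A count over the whole gene cannot tell whether an exon was lost, and both libraries are therefore named by their label, TMX. The hip libraries had few counts of cartilage genes: 16 chondrocyte markers held 0.0259% and 0.0106% of the counts in the control and the TMX library, against 0.638% and 0.314% in the knee, and 12 skeletal muscle markers held 17.0% and 16.5% of hip counts and 1.28% and 2.66% of knee counts. The note on RNA extraction names osteoblasts where the tissue labels name cartilage. Hip and knee counts came from different counting programs and gene sets, so their levels are set side by side and not compared in the results that follow.

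In both joints the genes of the collagen and osteocalcin matrix were called lower in the TMX library. Of the 4 osteocyte genes, Dmp1 was called lower in the knee and Mepe higher in the hip, Fgf23 was called higher in the knee, and Phex was called in neither joint. In the hip, 5 of the 10 genes were called lower (Sp7, Col1a1, Col1a2, Bglap and Bglap2), 1 was called higher (Mepe) and 4 were neither. Over all 19856 hip genes tested, 36.5% were called, 16.3% lower and 20.2% higher. In the knee, 6 were called lower (Col1a1, Col1a2, Bglap, Bglap2, Ifitm5 and Dmp1), 1 was called higher (Fgf23) and 3 were neither, beside 15.8% called over all 21131 genes, 6.81% lower and 9.00% higher. Fgf23 had 0 counts in the knee control and passed the count filter through the TMX library alone, so its call is set against no share, and with at least 10 counts in each library no member was called higher in the knee. The median log2 ratio of the 10 genes was -0.99 in the hip and -1.10 in the knee, and that of all genes tested was 0.01 and 0.02. All 10 passed the filter of 10 counts in both joints. The osteocalcin copies Bglap and Bglap2 are counted separately, and with them summed the medians were -0.54 and -1.06. In bulk RNA, fewer cells of a type and less RNA per cell cannot be told apart.

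**Figure D1:**
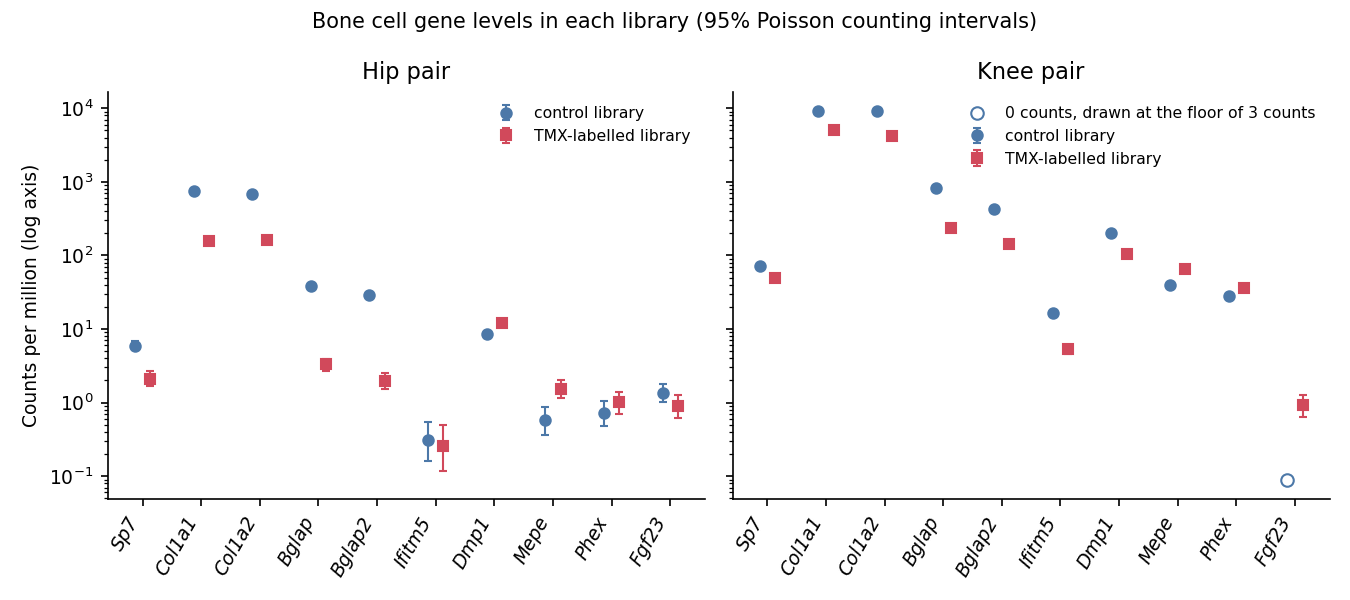
Level of the 10 genes in each of the 4 libraries, in CPM on a log axis, with hip and knee in separate panels and the control and TMX library as separate points, 1 library each, and bars for 95% Poisson counting intervals. The collagen and osteocalcin genes sit lower in the TMX library of both joints, and Fgf23, at 0 counts in the knee control (open circle at the floor of 3 counts), has 35 counts in the knee TMX library.

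Sp7 (ENSMUSG00000060284, chromosome 15 from 102265038 to 102279370 of GRCm39, minus strand), the transcription factor of the set, had 229 counts in the hip control and 73 in the hip TMX library (5.95 and 2.11 CPM), and 2460 and 1869 in the knee libraries (71.8 and 48.9 CPM). Its level was lower in the TMX library of both joints, but it passed the 2-fold rule in the hip alone. The log2 ratio was -1.44 (95% counting interval -1.85 to -1.07) in the hip and -0.74 (-0.82 to -0.65) in the knee.

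The 2 chains of type I collagen held most of the counts of the set. Col1a1 (ENSMUSG00000001506, chromosome 11 from 94827050 to 94843868, plus strand), which encodes the alpha 1 chain, had 29148 counts in the hip control and 5430 in the hip TMX library (758 and 157 CPM). It had 315688 and 191508 in the knee libraries (9213 and 5010 CPM), where it ranked 8 and 14 among all genes by counts. The log2 ratio was -2.23 (-2.27 to -2.18) in the hip, a level 4.68-fold lower, and -1.06 (-1.07 to -1.05) in the knee, 2.09-fold lower. Scaling by library size alone gave a knee ratio of -0.88, short of 2-fold. Col1a2 (ENSMUSG00000029661, chromosome 6 from 4504814 to 4541555, plus strand), which encodes the alpha 2 chain, followed it with 26252 and 5540 counts in the hip pair (682 and 160 CPM) and 318391 and 161154 in the knee pair (9292 and 4216 CPM). Its log2 ratio was -2.05 in the hip and -1.32 (-1.33 to -1.31) in the knee, 4.13-fold and 2.50-fold lower. The 2 chains stayed near each other in every library, with 901 and 1020 Col1a2 counts per 1000 Col1a1 counts in the hip control and TMX library and 1009 and 842 in the knee. Together they made up 92.1% to 94.4% of the counts of the 10 genes in each library. The exons of Col1a2 share 10.3% of their bases with Gm66266 on the opposite strand, and whether counting used strand is not given in the sources used here.

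Osteocalcin, the calcium-binding protein that mature osteoblasts secrete into bone matrix, is encoded in the mouse by copies that lie side by side. The coding sequences of the 2 copies in the set are shown in full (GRCm39, minus strand, gene spans chr3:88290808-88291771 for Bglap and chr3:88285043-88286060 for Bglap2), because their likeness limits how their counts can be read. Capitals mark the bases that differ.
Bglap: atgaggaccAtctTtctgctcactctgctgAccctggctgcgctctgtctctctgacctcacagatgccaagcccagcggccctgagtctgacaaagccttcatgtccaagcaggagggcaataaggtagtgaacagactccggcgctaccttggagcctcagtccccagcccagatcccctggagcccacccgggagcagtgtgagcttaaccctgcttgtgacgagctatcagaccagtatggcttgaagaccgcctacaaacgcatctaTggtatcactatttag
Bglap2: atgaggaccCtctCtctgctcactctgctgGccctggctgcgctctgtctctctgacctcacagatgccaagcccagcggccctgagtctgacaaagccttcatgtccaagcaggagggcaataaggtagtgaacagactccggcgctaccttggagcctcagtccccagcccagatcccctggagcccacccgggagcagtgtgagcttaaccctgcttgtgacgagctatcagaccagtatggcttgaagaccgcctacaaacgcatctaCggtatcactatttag
The 288 bases of each were 98.6% identical, with 4 differences, A10C, T14C, A31G and T273C, counted from 1 at the A of the start codon with the base of Bglap first. A stretch of 241 bases was the same in both. Of all 100-base words of the Bglap transcript, 56.3% also occurred in that of Bglap2, so a read could often not be placed on one copy and the split of counts between them is uncertain.

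The osteocalcin genes had the lowest ratios of the set in the hip. Bglap (ENSMUSG00000074483) had 1482 counts in the hip control and 114 in the hip TMX library (38.5 and 3.30 CPM), and 27984 and 9156 in the knee libraries (817 and 240 CPM). Bglap2 (ENSMUSG00000074486) had 1128 and 69 counts in the hip pair (29.3 CPM in the control) and 14463 and 5407 in the knee pair (422 and 141 CPM). Both copies were lower in the TMX library of both joints. The log2 ratio of Bglap was -3.50 (-3.79 to -3.23) in the hip and -1.95 (-1.99 to -1.92) in the knee. That of Bglap2 was -3.82 (-4.21 to -3.48) and -1.76 (-1.80 to -1.71). These are levels 11.3-fold and 14.2-fold lower in the hip, and 3.87-fold and 3.38-fold lower in the knee. Bglap3, the remaining copy, had 4 and 1 counts in the hip pair and 26 and 18 in the knee pair.

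Ifitm5 (ENSMUSG00000025489, chromosome 7 from 140528871 to 140532098, minus strand) encodes a small membrane protein of osteoblasts in which a mutation causes a form of brittle bone disease. It had 12 and 9 counts in the hip control and TMX library (0.312 and 0.260 CPM), too few to place its ratio, which was -0.20 (-1.64 to 1.15). In the knee it had 569 and 203 counts (16.6 and 5.31 CPM), a log2 ratio of -1.82 (-2.06 to -1.59). The level was lower in the TMX library of the knee, whereas its hip counts were too few to detect a difference. Its exons share 8.54% of their bases with Gm45717 on the same strand.

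Among the genes of osteocytes, Dmp1 (ENSMUSG00000029307, chromosome 5 from 104345340 to 104361974, plus strand), an acidic phosphoprotein of the mineralizing matrix, had ratios of opposite sign in the 2 joints. It had 329 counts in the hip control and 413 in the hip TMX library (8.55 and 11.9 CPM), and 6883 and 3960 in the knee libraries (201 and 104 CPM). The log2 ratio was 0.53 (0.31 to 0.74) in the hip, short of 2-fold, and -1.14 (-1.19 to -1.08) in the knee, which library-size scaling brought to -0.96. With 1 library per condition the difference between the joints was not tested.

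Mepe (ENSMUSG00000053863, chromosome 5 from 104473195 to 104486477, plus strand), another phosphoprotein of osteocytes and a neighbour of Dmp1, had 22 and 53 counts in the hip pair (0.572 and 1.53 CPM) and 1375 and 2520 in the knee pair (40.1 and 65.9 CPM). Its level was higher in the TMX library of both joints, with an interval above 0 in both. The log2 ratio was 1.45 (0.72 to 2.25) in the hip, where it was called higher, and 0.53 (0.44 to 0.63) in the knee, where it was not. Phex (ENSMUSG00000057457, chromosome X from 155945071 to 156198308, minus strand), the membrane peptidase whose loss causes X-linked hypophosphataemia, had 28 and 35 counts in the hip pair (0.728 and 1.01 CPM) and 950 and 1371 in the knee pair (27.7 and 35.9 CPM). Its log2 ratio was 0.51 (-0.24 to 1.29) in the hip and 0.19 (0.07 to 0.31) in the knee, so it was called in neither. Ratios also followed transcript length and GC content, and with that trend taken out the hip ratio of Phex turned to -0.80.

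Fgf23 (ENSMUSG00000000182, chromosome 6 from 127049865 to 127059255, plus strand), the phosphate-regulating hormone of osteocytes, had few counts in every library. It had 52 and 31 counts in the hip control and TMX library (1.35 and 0.896 CPM), a log2 ratio of -0.54 (-1.24 to 0.12). In the knee it had 0 counts in the control and 35 in the TMX library (0.916 CPM). Set against the floor of 3 counts per library, that is 9.22-fold higher, or 3.20 on the log2 scale. The lower end of the counting interval of the log2 ratio was below this, at 2.83. The knee control was therefore the one library without a count of this gene.

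**Figure D2:**
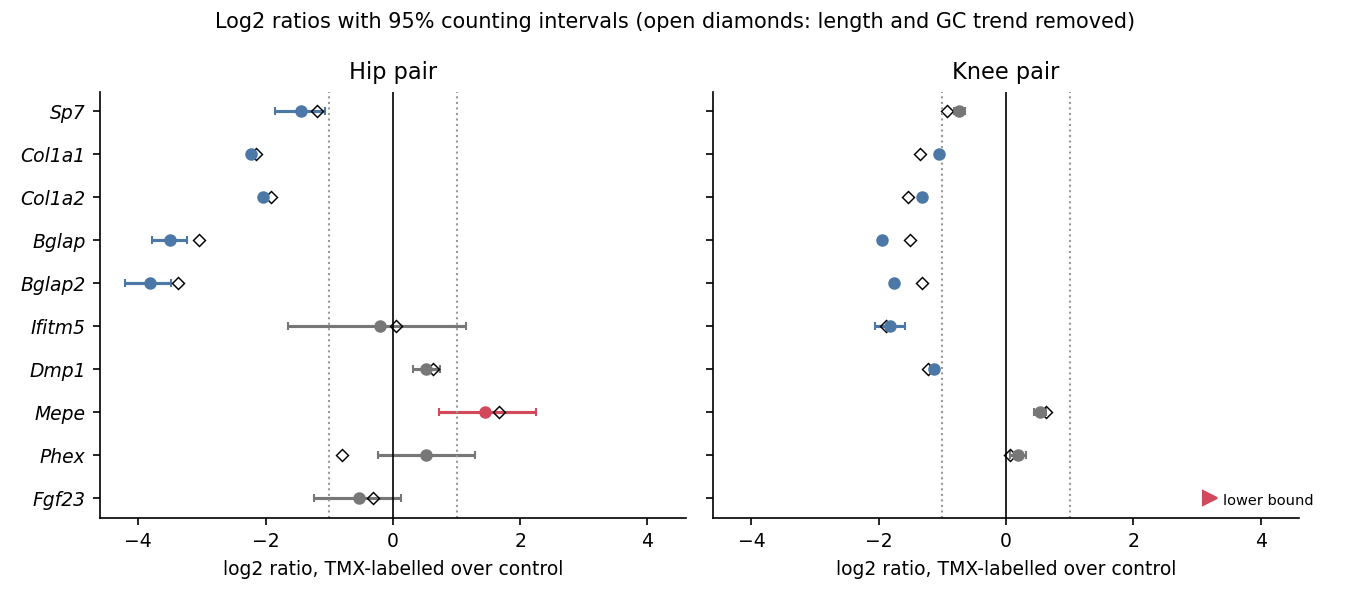
Log2 ratio of the TMX library over its control for the 10 genes in the hip and knee pair, with 95% counting intervals as bars, dotted lines at the 2-fold limits, blue and red for genes called lower and higher, open diamonds for the ratio with the length and GC trend taken out, and a triangle for the lower bound of Fgf23 in the knee. Bglap2 has the lowest ratio in the hip, Bglap, Ifitm5 and Bglap2 have the lowest in the knee with the bars of Ifitm5 reaching past both, and the Dmp1 points lie on opposite sides of 0.

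By level per length of transcript, the order of the genes changed with the library. RPKM is CPM per kilobase of the canonical transcript. In the knee control Bglap was first at 1856 RPKM, ahead of Col1a2 at 1734 and Col1a1 at 1554, whereas in the knee TMX library Col1a1 was first at 845 and Bglap stood at 544. In the hip control Col1a1 (128 RPKM) and Col1a2 (127 RPKM) were level, followed by Bglap at 87.5, and in the hip TMX library Col1a2 stood at 29.9 and Bglap at 7.49. Dmp1 passed Bglap2 in the hip, from 3.08 RPKM against 55.8 in the control to 4.31 against 3.80 in the TMX library. Mepe passed Dmp1 in the knee, from 23.9 against 72.4 in the control to 39.2 against 37.4 in the TMX library. How far neighbours in these orders differ beyond the spread between animals cannot be given. The places of Bglap and Bglap2 also rest on the split of counts between the copies, which is uncertain. The 10 genes together held 0.153% of the counts in the hip control and 0.0340% in the hip TMX library, and 2.01% and 0.987% in the knee.

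Counts set against Col1a1 of the same library do not depend on the scaling between libraries. Per 1000 Col1a1 counts, Bglap went from 50.8 in the hip control to 21.0 in the hip TMX library and from 88.6 to 47.8 in the knee. Dmp1 went from 11.3 to 76.1 in the hip and from 21.8 to 20.7 in the knee. Osteocalcin thus was lower against collagen in the TMX library of both joints, whereas Dmp1 was higher against it in the hip and near level in the knee. Mepe went from 0.755 to 9.76 in the hip and from 4.36 to 13.2 in the knee. Phex went from 0.961 to 6.45 in the hip and from 3.01 to 7.16 in the knee. Both osteocyte genes were higher against collagen in both joints, with log2 ratios of these ratios of 3.67 and 1.59 for Mepe and 2.74 and 1.25 for Phex. The hip value of Phex was 1.36 with the length and GC trend taken out. Sp7 went from 7.86 to 13.4 in the hip and from 7.79 to 9.76 in the knee. Relative to collagen the knee changes of Bglap and Bglap2, -0.89 and -0.70 on the log2 scale, were -0.17 and 0.03 with the length and GC trend taken out.

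**Figure D3:**
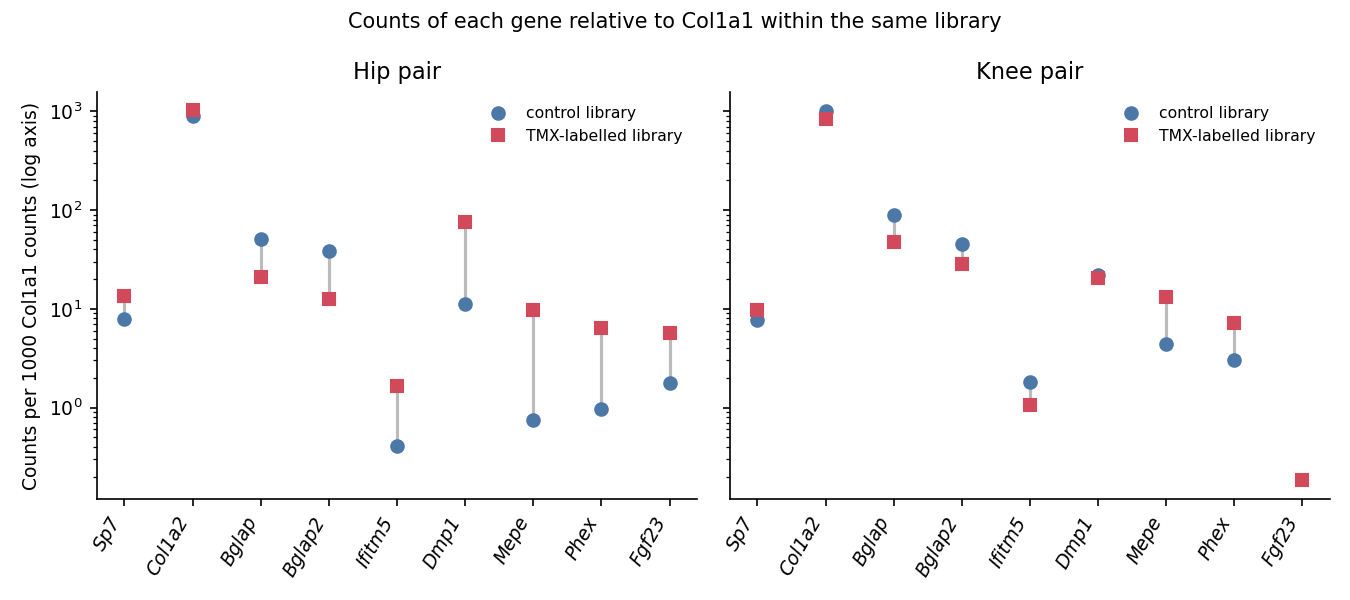
Counts of each other gene of the set per 1000 Col1a1 counts in the control and TMX library of each joint, on a log axis, with Fgf23 in the knee control not drawn because it had 0 counts. Mepe and Phex stand higher in the TMX library of both joints, and Bglap and Bglap2 stand lower.

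The upstream sequences of 3 genes are shown because they hold the core letters that Runx factors bind as a complex with Cbfb. The RefSeq table (GRCm38.p6, a build other than that of the gene positions above) held windows from 250 bases before to 50 after the start for 7 of the 10 genes, and Sp7, Col1a1 and Bglap2 had none. The letters TGTGGT were sought on both strands, on the other strand as ACCACA, and were found in 3 of the 7, beside 18.9% of the 27025 genes in the table. The 250 bases before the start are printed, with the match in capitals: chr3:88384467-88384716 on the minus strand for Bglap, chr5:104202367-104202616 on the plus strand for 1 of 2 starts of Dmp1, and chr5:104325079-104325328 on the plus strand for Mepe.
Bglap: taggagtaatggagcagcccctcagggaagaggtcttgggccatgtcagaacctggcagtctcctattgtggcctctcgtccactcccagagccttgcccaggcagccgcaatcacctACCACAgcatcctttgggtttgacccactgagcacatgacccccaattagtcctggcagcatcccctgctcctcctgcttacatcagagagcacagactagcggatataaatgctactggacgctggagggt
Dmp1: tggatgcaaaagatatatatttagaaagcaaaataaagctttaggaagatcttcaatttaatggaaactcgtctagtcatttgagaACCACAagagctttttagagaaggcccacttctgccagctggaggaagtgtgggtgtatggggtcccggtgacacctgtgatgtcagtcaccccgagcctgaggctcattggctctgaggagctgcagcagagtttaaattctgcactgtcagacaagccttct
Mepe: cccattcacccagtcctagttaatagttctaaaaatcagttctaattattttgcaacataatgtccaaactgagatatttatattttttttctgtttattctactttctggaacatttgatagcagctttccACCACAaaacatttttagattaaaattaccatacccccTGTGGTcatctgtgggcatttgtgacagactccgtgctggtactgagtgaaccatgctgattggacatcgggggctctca
The match lay 132 bases before the start in Bglap and 164 before it in Dmp1, and Mepe had 2, at 118 and 80 bases before it. Bglap was lower in both TMX libraries and Mepe was higher in both, so genes with the letters stood on both sides. A match of letters describes the sequence and is no record of binding.

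Of the 9 genes with counts in all 4 libraries, 5 had a lower ratio in the hip than in the knee, all of them collagen, osteocalcin or Sp7. Fgf23 also had the lower ratio in the hip, but its knee ratio rests on a control with 0 counts. Among the 9, Bglap2 differed most, by -2.06 (hip minus knee, counting interval -2.42 to -1.71), followed by Bglap at -1.55, Col1a1 at -1.17, Col1a2 at -0.72 and Sp7 at -0.71. Dmp1 differed the other way by 1.66 (1.45 to 1.88) and Ifitm5 by 1.63 (0.39 to 2.86). Mepe differed by 0.91 (0.20 to 1.63) and Phex by 0.33 (-0.40 to 1.05). With the length and GC trend taken out, the difference of Phex turned to -0.86, so that 6 of the 9 were lower in the hip, and that of Sp7 became -0.26 and that of Col1a2 -0.38. These intervals cover counting only. The pairs differ in Cre driver, age, control treatment and counting program, and in the tissue taken, described as cartilage with bone in the knee. They also differ in skeletal muscle markers, which held 17.0% and 16.5% of hip counts and 1.28% and 2.66% of knee counts. These differences cannot be told apart.

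**Figure D4:**
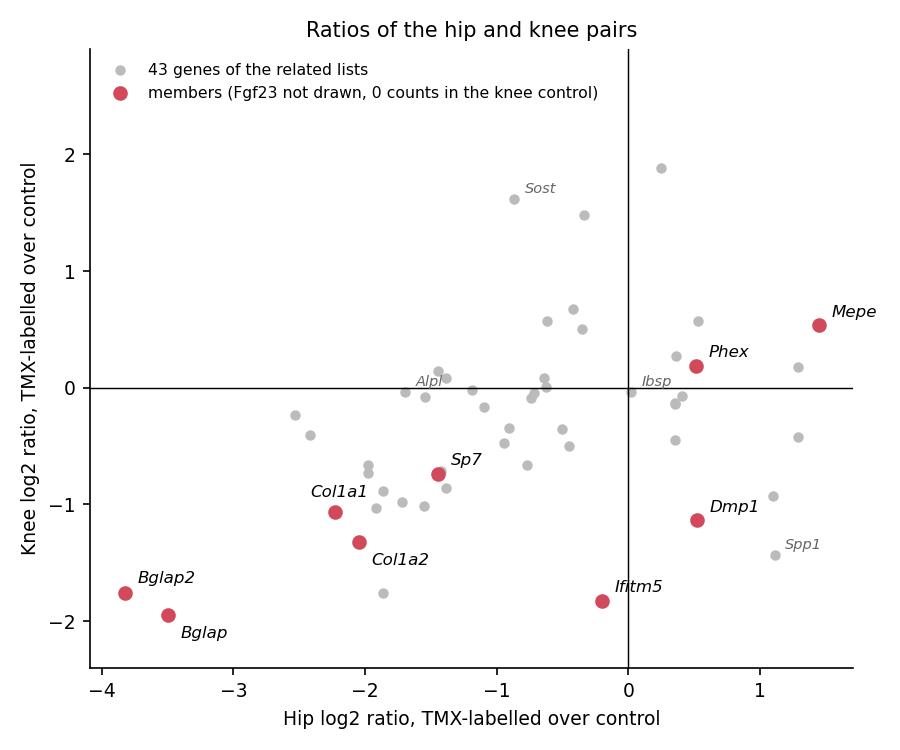
Knee log2 ratio against hip log2 ratio for the 10 genes (red, without Fgf23, which had 0 counts in the knee control) and 43 related bone genes (grey), each point 1 gene and each ratio the TMX library over its control. Collagen and osteocalcin genes lie in the lower left, and Dmp1 has a positive hip and a negative knee ratio.

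Other genes with a part in bone formation were read from 4 lists. Whether their counts came from bone cells was not tested. In the list of type I collagen processing genes, which fold, modify and cross-link the chains, 6 of 17 were called lower and 3 higher in the hip (median -0.62), beside 16.3% lower and 20.2% higher over all hip genes. In the knee 0 were called lower and 1 higher (median -0.36), beside 6.81% and 9.00%. With the length and GC trend taken out, 4 were called lower and 0 higher in the hip, beside 5842 of all 19856 hip genes called, 47.0% of them higher. Sparc, a collagen-binding matrix protein, had 25572 and 5663 counts in the hip pair (log2 ratio -1.98) and 258913 and 206786 in the knee pair (-0.66), and Serpinh1, the collagen chaperone, had ratios of -1.87 and -0.88. P4hb, a subunit of the enzyme that hydroxylates collagen prolines, had ratios of 0.35 and -0.13. Tmem38b was called higher in the hip, with 2498 and 5337 counts (1.29), and had a knee ratio of 0.18. Its hip ratio was 0.61 with the length and GC trend taken out. Sparc and Serpinh1 were called lower in the hip alone. The list ran from -1.98 to 1.29 in the hip and from -0.98 to 1.88 in the knee.

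Of the osteoblast transcription regulators, 2 of 7 tested were called lower in the hip and 0 higher, beside 16.3% lower and 20.2% higher over all genes, and in the knee 0 of 8 were called, beside 15.8%. Runx2, the partner of Cbfb in osteoblasts, had 280 and 191 counts in the hip pair (-0.35, -0.63 to -0.08) and 1249 and 2238 in the knee (0.50, 0.40 to 0.60). Neither ratio reached 2-fold, and they had opposite signs. Of the surface and mineral matrix genes, 4 of 9 tested were called lower and 1 higher in the hip (all genes 16.3% and 20.2%), and 3 of 10 lower and 1 higher in the knee (all genes 6.81% and 9.00%). Alpl, the phosphatase that frees phosphate for mineral, had 1919 and 517 counts in the hip pair (-1.69) and 6627 and 8172 in the knee (-0.04). Ibsp, an integrin-binding matrix protein of mineralized tissue, had ratios of 0.02 and -0.04, beside -3.50 and -1.95 for Bglap. Spp1 (osteopontin) was called higher in the hip (1.11, from 1005 and 1895 counts, and 0.64 with the length and GC trend taken out) and lower in the knee (-1.43, from 75953 and 35562 counts). Pth1r, the receptor of parathyroid hormone, was called lower in both, at -1.55 and -1.01, and its knee ratio was short of 2-fold at -0.83 with library-size scaling and also with DESeq2 size factors (-0.998).

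Of the osteocyte and phosphate genes, 2 of 8 were called lower in the hip and 1 of 8 higher in the knee, beside 16.3% of all genes lower in the hip and 9.00% higher in the knee. The gene called higher was Sost, the osteocyte inhibitor of Wnt signalling, with 423 and 1640 counts in the knee (1.61, 1.46 to 1.77). In the hip it had 34 and 16 counts (-0.87, -1.85 to 0.01). Like Mepe, it had more counts in the knee TMX library than in the control, against fewer of Dmp1. Fam20c, the kinase that phosphorylates Dmp1 and Mepe, had ratios of -1.55 in the hip and -0.08 in the knee. Over the 43 genes of the 4 lists, 14 of 41 tested were called lower and 4 higher in the hip (43.9% called, beside 36.5% of all genes), and 3 of 43 lower and 3 higher in the knee (14.0%, beside 15.8%). With the length and GC trend taken out, 14 were called lower and 0 higher in the hip. Of all 19856 hip genes, 5842 were called at that setting, 47.0% of them higher.

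**Figure D5:**
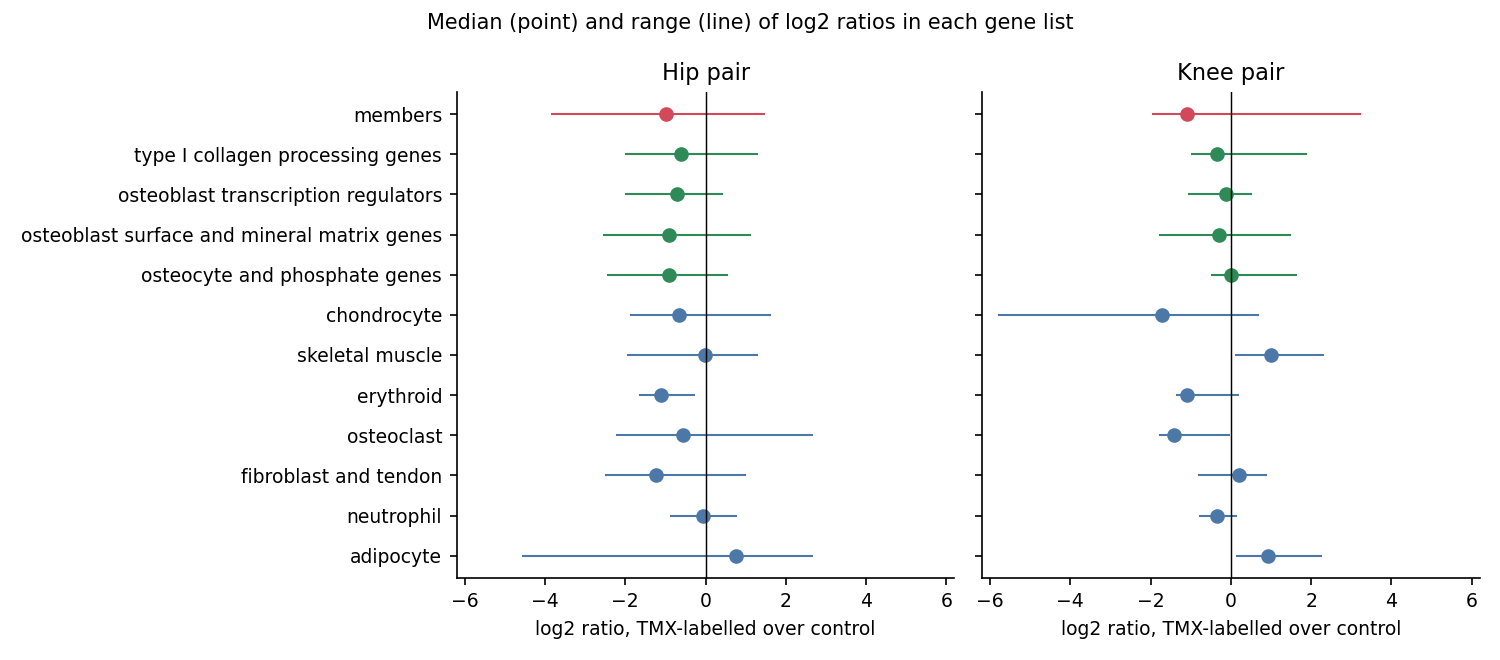
Range and median of the log2 ratios of each list of bone genes and of cell type markers in the hip and knee pair, with the 10 genes as members (red), related bone genes in green and cell type markers in blue. The upper end of the range of the 10 genes in the knee is Fgf23 set at its lower bound against the floor, and chondrocyte, osteoclast and erythroid markers have medians below -1 in the knee.

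Markers of other cells differed within the same pairs. Their counts stand beside shares over all genes of 6.81% lower and 9.00% higher in the knee, and 16.3% lower and 20.2% higher in the hip. In the knee, where the collagen and osteocalcin genes and Dmp1 were lower, 5 of 8 osteoclast markers were called lower (summed share 0.344% and 0.191%), as were 12 of 16 chondrocyte markers (0.638% and 0.314%) and 4 of 7 erythroid markers (9.97% and 4.92%), while 6 of 12 muscle markers (1.28% and 2.66%) and 3 of 7 adipocyte markers (0.0669% and 0.116%) were called higher. In the hip, where collagen was lower, 6 of 10 fibroblast and tendon markers were called lower (0.128% and 0.0544%), with Tnmd at 349 and 64 counts and Col3a1 at 9878 and 1850, a log2 ratio of -2.22 beside -2.23 for Col1a1. Of the same list, Mkx and Pdgfra had hip ratios of 0.99 (0.43 to 1.58) and 0.88 (0.72 to 1.03). In the knee Col3a1 had 23845 and 52435 counts, and none of that list was called. Also in the hip, 4 of 7 erythroid markers (0.588% and 0.222%) and 5 of 14 chondrocyte markers tested were called lower, with 2 chondrocyte markers called higher, and of 7 adipocyte markers 2 were called lower and 2 higher. Col2a1 and Acan, Acta1 and Ckm, Hbb-bs and Alas2, Acp5 and Ctsk, Tnmd and Col3a1, S100a8 and Elane, and Adipoq and Plin1, taken to define the 7 cell types, had counts above the floor in every library. Their part in the ratios of the 10 genes was not tested.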

How the data were processed

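Poly-A RNA of hip and knee articular cartilage was compared in 4 libraries, 1 per condition. The authors deposited raw counts for each Ensembl gene. The hip counts carry HTSeq's summary lines, which held 25.8% and 24.6% of the reads listed and were left out, and the knee counts came from another program that is not given in the sources used here. The submitters' processing notes name FastQC 0.11.3, STAR 2.0 and mm10, while the methods of the paper name GRCm39, so the build is unsettled.

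Symbols, positions and lengths came from the GENCODE mouse annotation of GRCm39, where 91.8% of hip and 92.6% of knee identifiers were found. Scaling used TMM in edgeR 4.0.16 within each joint, in R 4.3.3, and size factors of DESeq2 1.42.0 were tried. Other steps used Python 3.11.15, numpy 2.4.6, pandas 2.3.3, scipy 1.17.1 and matplotlib 3.10.9. A count of 0.5 was added before taking a ratio. To take out a trend, the median ratio within 20 bins by length, then by GC content, was subtracted, with 2 passes. The steps were tested on simulated counts.

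The members and lists were chosen with earlier results of these data known. All 10 members are named, and from each related list the 4 genes with the most counts could be named, plus Runx2, Cbfb, Sost and Bglap3. The genes most alike are those 10 outside the set, with at least 100 counts in each control, that lie nearest to the median of the members over the hip ratio, the knee ratio and the hip minus knee control level.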

Additional observations from a re-analysis of the deposited data

Results flagged for a closer look

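In 13 genes, 1 of the 10 genes and 12 of the related bone genes, the hip and the knee ratio had opposite signs with both counting intervals clear of 0. The difference was not tested, since each joint has 1 library per condition. How many of all genes meet the same rule was not counted, so the 13 cannot be read as particular to bone genes. Of the 10 genes it was Dmp1, with a hip minus knee difference of 1.66 on the log2 scale. Among the collagen processing genes the differences were 2.03 for Plod2 and 1.71 for Lox, enzymes of collagen cross-linking, -1.60 for Adamts2, which trims procollagen, -1.09 for Ppib and 0.48 for P4hb. Among the genes of mineral and surface they were 2.55 for Spp1 (osteopontin), -1.82 for Phospho1, a phosphatase of mineralization, and -1.19 for Omd. For the transcription regulators they were -0.85 for Runx2, 0.80 for Atf4 and 0.48 for Cbfb, and for Gja1, the gap junction protein that links osteocytes, 0.49. With the length and GC trend taken out, 5 of the 13 no longer had opposite signs, with the hip ratio turned to -0.27 for Cbfb, -0.56 for Gja1, 0.25 for Ppib and 0.25 for Phospho1, and the knee ratio to -0.18 for Adamts2. With library-size scaling 3 of the 13 no longer did, with knee ratios of 0.05 for P4hb, 0.11 for Cbfb and 0.04 for Gja1. With the upper quartile all 13 kept opposite signs but the intervals of 7 alone stayed clear of 0, and the hip ratio of Dmp1 was 0.18 (-0.03 to 0.39). Ppib, Plod2, Adamts2, Lox, Omd and Phospho1 lie outside the rule for named genes and were named after their values were seen.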

How the results depend on the processing

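Scaling, the added count, the count filter, the fold limit, the length and GC trend and the summing of the osteocalcin copies were varied. No member ratio that was called changed sign. Uncalled hip ratios did so with the trend removed, Phex from 0.51 to -0.80 and Ifitm5 from -0.20 to 0.05. Of the members called, 6 in the hip became 4 at 4-fold. The 7 in the knee became 5 with library size, 8 at 1.5-fold and 1 at 4-fold (Fgf23). Summing the osteocalcin copies makes 1 entry of 2, so 5 were then called in the hip and 6 in the knee. The summed entry stayed called lower, at -3.63 in the hip and -1.88 in the knee. With at least 10 counts in each library 6 were called in the knee and 0 of them higher, since Fgf23 left the test. The hip median of -0.99 became -0.54 with the osteocalcin copies summed, -1.34 with the upper quartile and -1.44 with at least 10 counts in each library. The knee median of -1.10 became -0.92 with library size, -1.22 with the upper quartile, -1.27 with the trend removed, -1.14 with at least 10 counts in each library and -1.06 with the osteocalcin copies summed. The related bone genes called, 18 in the hip and 6 in the knee, ranged from 14 to 20 and from 5 to 8. Of all genes, 7252 called in the hip became 4548 with at least 10 counts in each library and 3146 at 4-fold, and 3342 in the knee became 2013, 6349 at 1.5-fold and 1160 at 4-fold. Relative to Col1a1 in the knee, Bglap2 turned to 0.027 and Dmp1 to 0.13 with the trend removed. The median ratio was -0.33 for the shortest and 0.21 for the longest transcripts in the knee, and -0.31 and 0.48 in the hip. The upper quartile moved the median of all hip genes to -0.33 and the share of calls that were higher from 55.4% to 36.8%. Library size moved the knee median of all genes to 0.20 and that share from 56.9% to 71.3%. The cause was not tested. No paired analysis was possible because each group has 1 library, and no library could be left out. Low counts limit Ifitm5, Mepe, Phex and Fgf23 in the hip.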

Other observations

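The gene nearest to the median of the 10 genes by the rule for likeness was Atp5if1, an inhibitor of the mitochondrial ATP synthase, among 10140 candidates. It had 522 and 221 counts in the hip pair and 8495 and 5118 in the knee pair, log2 ratios of -1.04 and -1.07. The others were Sec61b, Hbb-bs, Ccn4, Nme1, Gpx1, Slc37a2, H2ax, Ltb and Tuba1c, at distances from 0.233 to 0.526 on the log2 scale. The rule takes in the control level of the hip minus that of the knee, which also holds the difference between the counting programs. Over the 2 ratios alone, a choice made after seeing the data, Atp5if1 was again nearest, and 2 of the 10 genes (it and Sec61b) were shared between the lists. The likeness rests on 4 libraries.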
